A study of Mus musculus with 4 samples.

Results

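The desmosome and adherens junction genes of the intercalated disc were followed in polyadenylated RNA of the unmanipulated mouse heart. They were chosen by symbol, as genes linked to arrhythmogenic cardiomyopathy, and all 10 were found among the 23420 gene entries of each library. Of these, 5 encode parts of the desmosome (Dsp, Pkp2, Dsg2, Dsc2 and Jup) and 5 encode proteins of the adherens junction or its scaffold (Cdh2, Ctnna1, Ctnna3, Ctnnb1 and Tjp1). The series holds 4 libraries of 1 group: wild-type C57BL/6J mice, labelled male, 12 weeks old, with no treatment, no engineered allele and no control group. Per the labels' protocols the RNA came from the apex of the ventricles, although the tissue label names the heart as a whole.

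The intercalated disc is the end-to-end contact between heart muscle cells. Its desmosomes tie the intermediate filament desmin of neighbouring cells together, and its adherens junctions tie their actin filaments together. In the heart the components of both mix in a shared structure, the area composita. Cadherins of both kinds (desmogleins, desmocollins and N-cadherin) span the membrane. Armadillo proteins (plakoglobin, plakophilin and beta-catenin) bind the cadherin tails, and desmoplakin and alpha-catenin carry the link to the filaments. Human variants in the desmosomal genes are the best known cause of arrhythmogenic cardiomyopathy.

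The libraries held 10523709 to 15359296 gene counts each, and levels are given as CPM, counts scaled to a total of 1000000 gene counts. These facts set the libraries apart. Xist had 5, 1897, 1806 and 19 counts in libraries 1 to 4 and the Y-linked Ddx3y 341, 0, 1 and 437, so libraries 2 and 3 went against their label of male. The ribosomal RNA precursor Rn45s took 11.9 to 14.1% of gene counts, and it enters every CPM below. The heart muscle list was detected in full (10 of 10 genes at 1 CPM or more), while the atrial light chain Myl7 had 1 to 7 counts per library. Separate animals are not stated for the 4 libraries, so p-values and SDs measure only the spread between these samples. Part of that spread may be technical. By the sex-linked counts, libraries 1 and 4 did not come from the same animals as libraries 2 and 3. The labels do not state whether several animals were pooled.

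The sum over the set varied little between the libraries. Most single members varied more by CV, while Ctnna1 and Ctnnb1 varied slightly less. Summed over the 10 genes, the level was 5118, 4957, 5228 and 5247 CPM in libraries 1 to 4, or 0.514 ± 0.0133% of gene counts (SD, n = 4). The coefficient of variation (CV) of that sum was 2.59%. In libraries 1 and 4 alone, chosen after seeing the data, the sum was 5182 CPM. The 5 desmosome genes gave 3611 ± 94.2 CPM and the 5 adherens genes 1526 ± 40.0 CPM (SD, n = 4). Most of the desmosome sum was that of Dsp alone, at 2926 CPM.

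**Figure D1:**
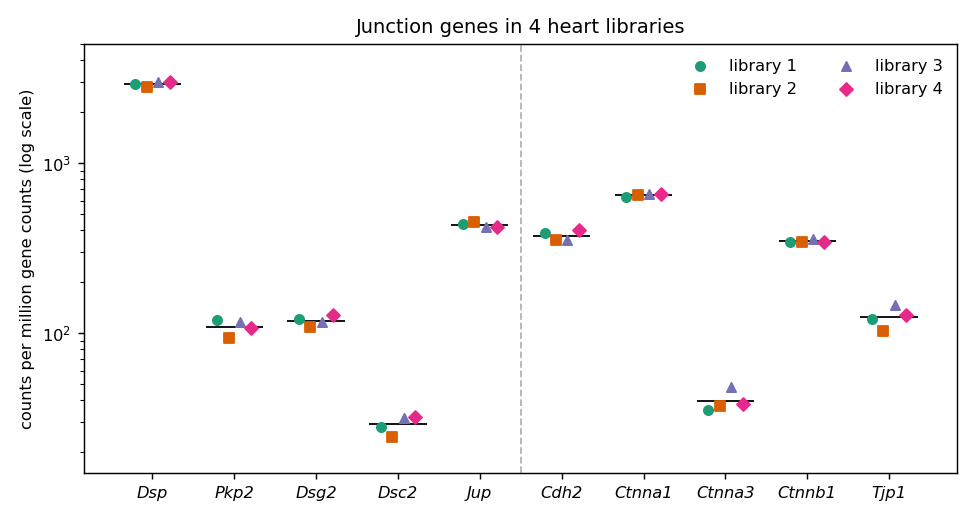
Level of each junction gene in CPM on a log axis, with 1 point per library and a bar at the mean of 4 libraries. Desmosome genes stand left of the dashed line and adherens genes right of it. Dsp lies near 2926 CPM and Dsc2 near 28.9 CPM, and the points of each gene lie close together.

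Dsp encodes desmoplakin, the plakin that anchors desmin to the desmosome, and it led the set by a wide margin. It had 2907, 2807, 2996 and 2997 CPM in libraries 1 to 4, a mean of 2926 ± 90.4 CPM (SD, n = 4). Libraries 3 and 4 were level and library 2 was lowest, with the highest library only 1.07-fold above the lowest. By CPM it ranked 27 among all 23420 genes. Dsp supplied 56.96 ± 0.308% of the summed CPM of the set, a share that stayed between 56.6 and 57.3%.

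Because a long transcript yields more fragments, genes were compared with each other as CPM per kilobase of annotated exon (all exons of a gene in GENCODE M21, merged). On this scale Dsp (chr13:38151294-38198577, 9659 exon bases) still led, at 303 ± 9.36 CPM per kilobase (SD, n = 4). Its share of the summed CPM per kilobase of the set was 47.0 ± 0.338%, or 34.8 ± 0.396% by the longest transcript (SD, n = 4). It ranked 110 of 12288 genes that averaged 1 CPM or more and had a known length. Below it the order was Ctnna1 (100.4), Jup (66.8), Ctnnb1 (66.5), Cdh2 (46.2), Pkp2 (20.2), Tjp1 (15.9), Dsg2 (14.2), Dsc2 (5.48) and Ctnna3 (5.47 CPM per kilobase). The highest and the lowest of the set therefore lay more than an order of magnitude apart. The values of Jup and Ctnnb1 overlapped between libraries, as did those of Pkp2 and Tjp1, of Tjp1 and Dsg2, and of Dsc2 and Ctnna3; the other neighbours in the order did not overlap.

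The length used moved this order. The annotated transcripts of a gene can differ in their exons, and Jup has 6436 bases of merged exon but a longest transcript of 3205 bases. Per kilobase of the longest transcript, Jup rose to 134 ± 4.34 and stood above Ctnnb1 at 95.3 ± 1.95 (SD, n = 4), with no overlap. Ctnna3 came to 10.7 and Dsc2 to 6.24, again with no overlap, and the mean of Dsg2 (20.4) lay above that of Tjp1 (17.6), with ranges that overlapped and Dsg2 higher in 3 of 4 libraries. Dsp and Ctnna1 kept the top of the order, at 305 and 173 CPM per kilobase.

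**Figure D2:**
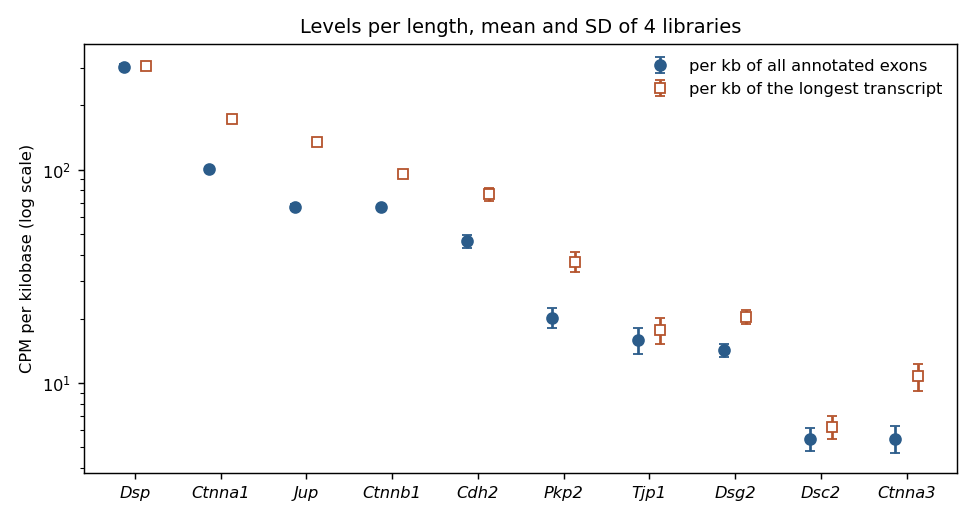
Mean level per kilobase on a log axis, with SD over 4 libraries, for 2 definitions of gene length. Filled circles use all annotated exons and open squares the longest transcript. Dsp (303 and 305) is nearly the same on both, while Jup (66.8 and 134) shifts most with the definition.

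The stretches before the transcription start are shown for Dsp and Jup, the highest desmosome genes per length, and for Ctnna3, which shares the lowest level per length with Dsc2. They are the 250 bases before a RefSeq start on GRCm38.p6, written 5′ to 3′ on the strand of the gene. Capitals mark GC boxes (GGGCGG on either strand) and CCAAT boxes (CCAAT on either strand).
Dsp, chr13:38151044-38151293, plus strand: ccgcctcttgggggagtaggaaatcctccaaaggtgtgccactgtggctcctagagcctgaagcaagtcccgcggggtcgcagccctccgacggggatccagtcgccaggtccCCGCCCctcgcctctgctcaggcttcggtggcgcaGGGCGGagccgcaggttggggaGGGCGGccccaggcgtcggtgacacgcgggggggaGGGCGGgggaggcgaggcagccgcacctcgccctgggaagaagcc
Jup, chr11:100397791-100398040, minus strand: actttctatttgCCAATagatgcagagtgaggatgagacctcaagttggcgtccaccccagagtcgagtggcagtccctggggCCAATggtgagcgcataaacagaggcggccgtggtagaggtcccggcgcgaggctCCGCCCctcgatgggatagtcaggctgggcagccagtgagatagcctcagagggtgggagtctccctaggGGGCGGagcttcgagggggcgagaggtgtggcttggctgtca
Ctnna3, chr10:63429848-63430097, plus strand: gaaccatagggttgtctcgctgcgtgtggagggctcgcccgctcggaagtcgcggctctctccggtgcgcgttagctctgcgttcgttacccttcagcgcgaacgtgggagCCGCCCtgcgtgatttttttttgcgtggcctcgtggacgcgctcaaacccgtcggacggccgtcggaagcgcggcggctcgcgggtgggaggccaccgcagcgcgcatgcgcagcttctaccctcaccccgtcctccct
All 3 windows are rich in G and C, at 72.4% for Dsp, 62.0% for Jup and 67.6% for Ctnna3, against a median of 52.4% over 32851 such windows. CpG dinucleotides numbered 22, 13 and 36, against a median of 6. Dsp held 4 GC boxes, Jup 2 and Ctnna3 1, a motif present in 32.7% of all windows, and only the Jup window of these held CCAAT boxes (2, with a match in 33.8% of all windows). A TATA box (TATAAA), an E-box (CANNTG), a GATA motif (AGATAA) and an M-CAT element (CATTCC), each searched on both strands, were absent from these 3 windows. Those motifs had a match in 12.4, 66.2, 9.99 and 12.6% of all windows, and no matches overlapped in the windows shown. RefSeq lists 2 further starts for Ctnna3, with 44.8 and 45.6% G and C and 7 and 1 CpG. Gene counts do not show which start was used. Among the windows shown, that of Ctnna3 held the most CpG. The windows of Ctnnb1, which had nearly the level of Jup per kilobase of exon, held 35 and 43, so CpG number did not order these genes by level. These letters describe the windows without showing that any factor binds there.

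Jup encodes plakoglobin, the armadillo protein that binds desmosomal cadherins and also N-cadherin. It had 434, 447, 418 and 419 CPM, a mean of 429.6 ± 13.9 CPM (SD, n = 4). It was the only member highest in library 2, where the others of the desmosome were lowest. Per kilobase of exon Dsp exceeded Jup 4.54-fold (log2 ratio 2.18 ± 0.09, SD, n = 4), and 2.28-fold by the longest transcript.

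Pkp2, plakophilin 2, links the cadherin-plakoglobin complex to desmoplakin and is the plakophilin of heart muscle. It had 119, 93.2, 116 and 106 CPM, with library 2 below the rest (mean 109 ± 11.5 CPM, SD, n = 4). The exact Poisson limits of 95% for library 2, which cover counting error alone, were 88.2 to 98.4 CPM and did not reach those of the other 3 libraries. Jup exceeded Pkp2 3.31-fold per kilobase of exon, in 4 of 4 libraries. Dsp exceeded Pkp2 15.02-fold, or 8.27-fold by the longest transcript.

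Dsg2 and Dsc2 encode desmoglein 2 and desmocollin 2, the desmosomal cadherins that span the gap between cells. Dsg2 had 119.9, 108, 115 and 128 CPM and Dsc2 27.9, 24.3, 31.6 and 31.8 CPM. Both were lowest in library 2 and highest in library 4. Per kilobase of exon, Dsg2 exceeded Dsc2 2.61-fold (log2 ratio 1.38 ± 0.13, SD, n = 4), in 4 of 4 libraries. On the log2 scale the ratio was lowest in library 3, at 1.21, and highest in library 2, where Dsc2 was at its lowest. Both cadherins were thus far below the plaque proteins Dsp and Jup in RNA level per length.

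The desmosomal genes of stratified epithelia were near zero. Dsg1b, Dsg1c and Dsc3 had 0 counts in all 4 libraries, which allows a level of up to 0.195 to 0.285 CPM per library (3 counts). Dsg1a, Dsg3, Dsg4, Dsc1 and Pkp1 had at most 2 counts in any library and Pkp3 1 to 5. The desmoglein, desmocollin and plakophilin RNA counted in this ventricle was therefore nearly all that of Dsg2, Dsc2 and Pkp2, together with Pkp4. Of the other desmosome genes, the membrane protein Perp had 56.1 ± 2.85 CPM per kilobase and the plakin Ppl, periplakin, 4.81 ± 1.02 (SD, n = 4). Evpl, envoplakin, had 10 to 19 counts per library. Of the 12 genes on the list of other desmosome genes, 3 reached 1 CPM. Of these 3, 0 were called more variable at an adjusted p under 0.05 and 1, Ppl, at an unadjusted one (edgeR), beside 0.445% and 6% of all tested genes.

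Pkp4 is a relative of the plakophilins that binds cadherins of the adherens junction. It had 192, 142, 157 and 193 CPM, lowest in library 2 as Pkp2 was. Per kilobase of exon Pkp2 stood at 0.679 times Pkp4 (log2 ratio -0.56 ± 0.17, SD, n = 4), lower in 4 of 4 libraries. By the longest transcript their mean log2 ratio was 0.0057, so the data do not order this pair.

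Cdh2 encodes N-cadherin, the classical cadherin of heart muscle. It had 386, 350.2, 351 and 402 CPM, a mean of 372 ± 25.7 CPM (SD, n = 4). Libraries 2 and 3 were level and lay below libraries 1 and 4. Against the trend for its abundance this spread was ordinary, with a variance ratio (spread over that trend) of 1.09 (unadjusted p = 0.409, edgeR). Libraries 2 and 3 are also those whose sex-linked transcripts went against the label, and whether sex plays a part in Cdh2 was not tested. Cdh2 exceeded the desmosomal cadherin Dsg2 3.24-fold per kilobase of exon, a log2 ratio of 1.70 ± 0.04 (SD, n = 4). That ratio spanned only 1.65 to 1.73 over the libraries, so Cdh2 and Dsg2 kept nearly the same proportion while both varied.

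N-cadherin was not the most abundant classical cadherin per length. Cdh5, VE-cadherin of the endothelium, had 86.8 ± 3.54 CPM per kilobase of exon against 46.2 ± 3.18 for Cdh2 (SD, n = 4). Cdh2 was lower in 4 of 4 libraries, at 0.531 times Cdh5, or 0.841 times by the longest transcript. Cdh13, T-cadherin, which lacks a cytoplasmic tail, had 14.8 ± 0.306 CPM per kilobase, and Cdh2 exceeded it 3.11-fold, or 2.11-fold by the longest transcript. Of the other cadherins on the fixed list, Cdh4 had 5.01 ± 1.72 CPM and the epithelial Cdh1 had 0, 0, 0 and 2 counts. Of 13 cadherins on that list 5 reached 1 CPM, and 0 of these 5 were called more variable, beside 0.445% of all tested genes. At an unadjusted p under 0.05 there were 2 of 5, Cdh4 and Cdh11 (edgeR), beside 6% of all tested genes. In bulk tissue, fewer cells of a type and less RNA per cell cannot be told apart, so these ratios mix cell number with level per cell.

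The alpha-catenins link the cadherin complex to actin. Ctnna1, alpha-E-catenin, had 628, 644, 652 and 656 CPM, a mean of 645 ± 12.4 CPM (SD, n = 4). Its CV of 1.92% was the lowest of the set and its highest library lay only 1.04-fold above its lowest. Ctnna3, alpha-T-catenin, is found mainly in heart and testis and binds plakophilin 2. It had 34.97, 37.2, 47.9 and 38.0 CPM. Library 3 was the high one for Ctnna3, with Poisson limits of 43.8 to 52.3 CPM above those of the other libraries, none of which passed 41.2 CPM. These limits cover counting error alone, and against the trend for its abundance the spread of Ctnna3 did not pass the test (adjusted p = 0.863, edgeR).

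Ctnna1 exceeded Ctnna3 18.5-fold per kilobase of exon, a log2 ratio of 4.21 ± 0.18 (SD, n = 4), and 16.2-fold by the longest transcript. The ratio was 4.33, 4.28, 3.93 and 4.28 in libraries 1 to 4, with library 3 the low one. The neural form Ctnna2 had 0 counts in all 4 libraries. Ctnna1 is made by most cell types, so this ratio in whole tissue is not that of heart muscle cells alone.

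Ctnnb1, beta-catenin, joins cadherins to alpha-catenin and is also the effector of canonical Wnt signalling. It had 341, 343, 356 and 342 CPM (mean 345 ± 7.08 CPM, SD, n = 4), level in libraries 1, 2 and 4 and slightly higher in library 3. Plakoglobin is its closest relative, and per kilobase of exon Ctnnb1 and Jup did not differ beyond their spread (log2 ratio -0.0052 ± 0.07, SD, n = 4; higher in 2 of 4 libraries). By the longest transcript Ctnnb1 stood at 0.711 times Jup. In GENCODE M21, 14.6% of the exon bases of Ctnnb1 (chr9:120929216-120960507) are shared with Ulk4 on the other strand. The libraries do not keep the strand, so reads there cannot be assigned to either gene alone, and the order of Ctnnb1 and Jup is uncertain.

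Ctnna1 exceeded Ctnnb1 1.51-fold and Ctnnb1 exceeded Cdh2 1.44-fold per kilobase of exon, each in 4 of 4 libraries. Ctnnd1, p120-catenin, which binds classical cadherins near the membrane and slows their removal from it, had 18.0 ± 0.807 CPM per kilobase (SD, n = 4). Ctnnb1 exceeded it 3.69-fold. Of the exon bases of Ctnnd1, 61.2% are shared in GENCODE M21 with the entry Gm28635, and 0% with genes listed in the count files. Its level is uncertain for that reason. On the list of other catenins and plakophilins, 5 of 7 genes reached 1 CPM. Of these 5, 0 were called more variable and 1, Pkp4, had an unadjusted p under 0.05 (edgeR), beside 0.445% and 6% of all tested genes.

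Tjp1 encodes the scaffold ZO-1, which sits at the edge of connexin 43 plaques and binds alpha-catenin. It had 121, 103, 145 and 128 CPM, a mean of 124 ± 17.4 CPM (SD, n = 4). Library 3 was 1.41-fold above library 2, beyond counting error (Poisson limits of 138 to 153 and 97.8 to 108 CPM).

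**Figure D3:**
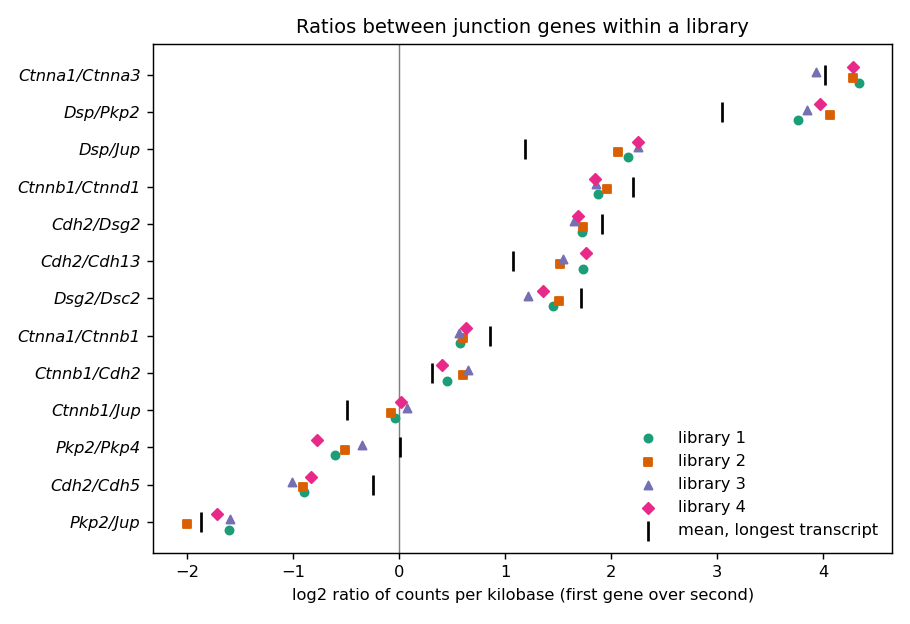
Log2 ratio of counts per kilobase of exon within a library for 13 pairs of genes, with 1 point per library and a vertical tick at the mean by the longest transcript. Ctnna1/Ctnna3 (4.21) and Dsp/Pkp2 (3.91) lie farthest to the right, and only Ctnnb1/Jup has points on both sides of 0.

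Each of the 14 log2 ratios was tested against 0 by flipping the signs of the library values in every combination (exact permutation test, two-sided). For 13 of them all libraries had the same sign and p took the smallest value that 4 libraries allow (0.135 after Benjamini-Hochberg adjustment over 14 pairs). For Ctnnb1 and Jup the exact permutation p was 1. With this test on 4 libraries, no pair could have passed 0.05.

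The spread of each member was set against that of genes of similar abundance. In edgeR's quasi-likelihood fit across 12358 genes averaging 1 CPM or more, 0 of 10 were called at an adjusted p under 0.05, and 55 of all genes tested were (0.445%). At an unadjusted p under 0.05 the count was 1 of 10, Tjp1, against 6% of all genes tested. DESeq2 marked 0 of 10 as dispersion outliers (1.04% of all genes). With so low a background share, 0 of 10 says little about the set. The count was also 0 of 10 with a library left out, when 0.356, 0.559, 0.315 and 0.404% of all genes were called without libraries 1, 2, 3 and 4. It was 0 as well with DESeq2 size factors (0.421% of all genes), no filter (1.48%), a prior that was not robust (0.0809%) and libraries 1 and 4 only (0.0486%).

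The CVs of the members ran from 1.92 to 14.5%, and no split into groups was tested. Ctnna1 (1.92%), Ctnnb1 (2.05%), Dsp (3.09%) and Jup (3.24%) had the lowest CVs. Tjp1 (14.0%), Ctnna3 (14.5%), Dsc2 (12.4%) and Pkp2 (10.6%) had the highest, with Cdh2 (6.89%) and Dsg2 (7.10%) between. The median CV of the set was 6.99%, beside 9.59% over all tested genes, but abundant genes have less counting error and the set is abundant (median 235 CPM, beside 16.6 CPM over all tested genes). For each gene the CV exceeded the mean counting error, which ran from 0.506% for Dsp to 5.11% for Dsc2.

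The variance ratio sets the spread of a gene against the trend for its abundance. It was 0.153 for Ctnna1, 0.274 for Ctnnb1, 0.329 for Jup and 0.360 for Dsp. It was 5.61 for Tjp1 (unadjusted p = 0.0256, adjusted p = 0.645, edgeR), 3.99 for Ctnna3 (adjusted p = 0.863), 3.21 for Pkp2 (adjusted p = 0.914) and 2.51 for Dsc2 (adjusted p = 0.972). The set had a median of 1.10, beside 0.852 over all tested genes. Relative to abundance, the median spread of the set was thus slightly above that of all genes, a difference that was not tested. Library 3 set the value of Ctnna3, which had a variance ratio of 0.305 without it. For Tjp1 the unadjusted p was 0.0529 without library 2 and 0.0906 without library 3 (edgeR).

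**Figure D4:**
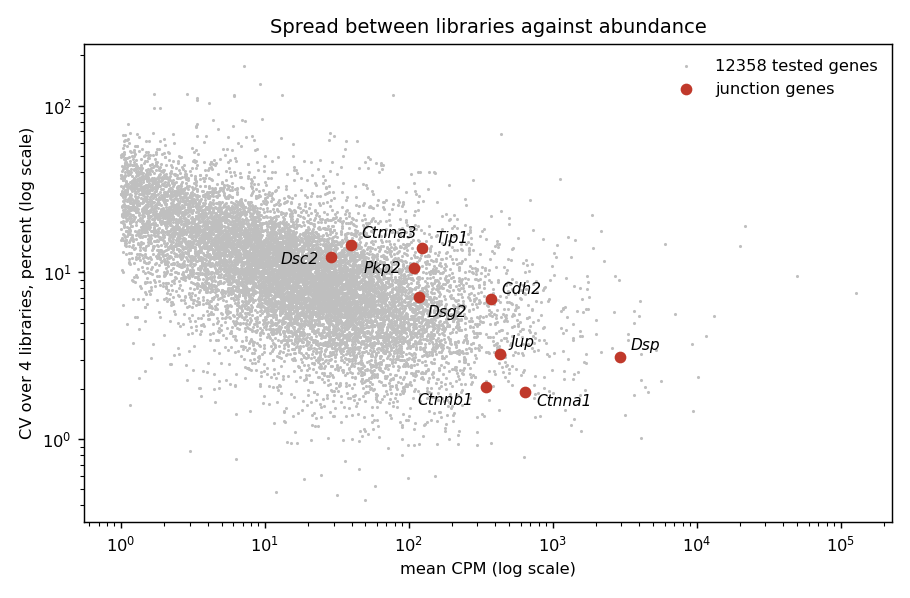
CV over 4 libraries against mean CPM, both on log axes, for 12358 tested genes (grey) and the 10 junction genes (red). Ctnna1 (1.92%) and Ctnnb1 (2.05%) lie low in the cloud and Tjp1 (14.0%) lies high for its abundance.

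The libraries differed in the same direction for several members. Library 2 was the lowest for 6 of 10 (Dsp, Pkp2, Dsg2, Dsc2, Cdh2 and Tjp1), beside 30.7% of all tested genes. Library 1 was lowest for 3 (19.8% of all tested genes), library 3 for 1 (33.4%) and library 4 for 0 (16.1%). Library 4 was the highest for 5 of 10, beside 27% of all tested genes, library 3 for 3 (22.9%), and libraries 1 and 2 for 1 each (21.6% and 28.5%). The count of members lowest in library 2 was 6 with trimmed-mean (TMM) scaling and 5 with Rn45s left out of the totals. The count highest in library 4 was 2 with TMM scaling, which put library 3 highest for 6 of 10. In library 2 the deviation was strongest in Tjp1, Dsc2 and Pkp2 and slight in Dsp. The members share these 4 libraries, so their counts are not independent of each other.

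**Figure D5:**
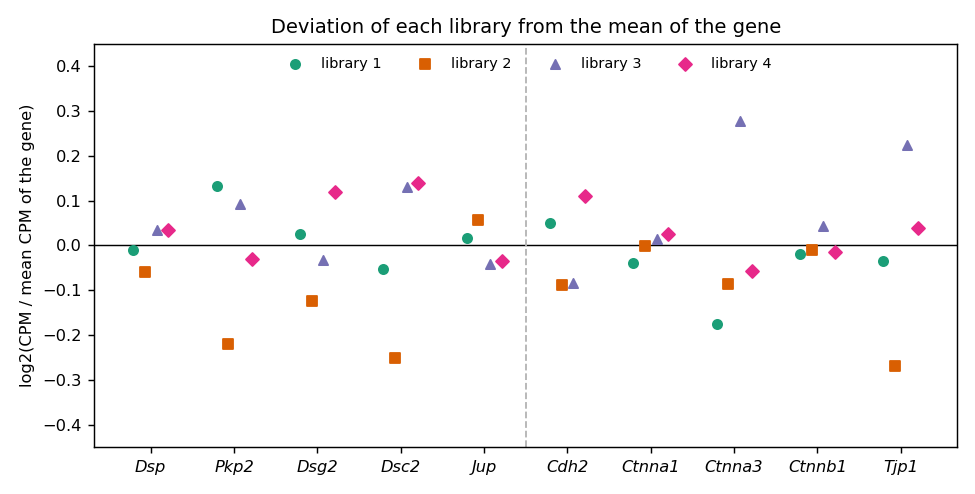
Log2 of the CPM in a library over the mean CPM of the gene, with 1 point per library. Library 2 is the lowest point for 6 of 10 genes, and library 3 is the highest for Ctnna3, Ctnnb1 and Tjp1.

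The proportions between members were also compared, as the SD over libraries of the log2 ratio of each of the 45 pairs of members. The median SD was 0.15. The steadiest ratios were those of Ctnna1 to Ctnnb1 (0.03), Dsg2 to Cdh2 (0.04), Dsp to Ctnna1 (0.04) and Dsp to Ctnnb1 (0.04). The least steady was that of Cdh2 to Ctnna3 (0.26), since Cdh2 was low and Ctnna3 high in library 3. Desmosome genes made up 63.6 ± 0.228% of the summed CPM per kilobase of the set (SD, n = 4), a share that stayed between 63.4 and 63.9%. By the longest transcript it was 57.4%. Dsp alone gave 47.0% per kilobase of exon and 34.8% by the longest transcript.

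Among 52 tested genes of the other junction and scaffold lists, 3 kept the steadiest ratio to the summed CPM of the set. They were Ank2, the adaptor ankyrin-B (169 ± 6.63 CPM, SD of the log2 ratio 0.02), the integrin-linked kinase Ilk (89.5 ± 2.67 CPM, 0.03) and desmin, Des (2580.0 ± 90.5 CPM, 0.03). The summed CPM is mostly that of Dsp. Counting error was not set against these SDs, so the order of these genes may be sampling noise. With 4 libraries this is a description only.

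The 28 genes listed as disc scaffold all had at least 1 CPM, with a median CV of 6.73%. Of these 28, 0 were called more variable, beside 0.445% of all tested genes. At an unadjusted p under 0.05 there were 5 of 28 (edgeR), Nrap and Gja1 among them, beside 6% of all tested genes. Highest per kilobase of exon were Actn2, the alpha-actinin of the Z disc, at 763 ± 68.7, Des at 687 ± 24.1 and Nrap, an actin anchor of the disc, at 260.2 ± 40.4 (SD, n = 4). Dsp was thus above Nrap and below Actn2 and Des. Connexin 43, Gja1, the gap junction channel that ZO-1 binds, had 338, 449, 409 and 357 CPM, highest in library 2 where Tjp1 was lowest.

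Of the tight junction and nectin list, 11 of the 18 genes found in the files reached 1 CPM. Of these 11, 0 were called and 0 had an unadjusted p under 0.05 (edgeR), beside 0.445% and 6% of all tested genes. The leading ones per kilobase of exon were the adhesion molecules Jam2 (23.0 ± 2.30) and F11r (17.8 ± 0.386) and the nectin partner afadin, listed as Mllt4 (11.5 ± 0.664, SD, n = 4). Of 10 other genes linked to arrhythmogenic cardiomyopathy, 10 reached 1 CPM, 0 were called and 1, Ttn, had an unadjusted p under 0.05 (edgeR), beside the same shares of all tested genes. They ranged from the nuclear envelope protein Tmem43, at 7.42 ± 0.631 CPM per kilobase of exon, to Des.

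Junction genes are not made by heart muscle alone, so markers of other cells stand beside these levels. Endothelial markers (10 of 10 at 1 CPM or more) summed to 1592 to 1634 CPM, mural markers (8 of 8) to 1291 to 1421, fibroblast markers (10 of 10) to 954 to 1065 and macrophage markers (8 of 8) to 280.1 to 321 CPM. Of the mural sum, Abcc9 alone gave 510 ± 19.1 CPM (SD, n = 4). Whether that RNA came from mural cells was not tested, so the mural sum is not a measure of mural cells alone. Heart muscle markers summed to 117588 to 128025 CPM. Keratinocyte and epithelial markers summed to 5.96 to 7.98 CPM, with 3 of 10 at 1 CPM or more, Krt1 at 0 and Epcam at 0, 1, 0 and 0 counts. Epicardial and mesothelial markers summed to 11.6 to 16.4 CPM, with 2 of 10 at 1 CPM or more. Atrial markers summed to 135 to 154 CPM, nearly all of it Nppa, with 2 of 5 at 1 CPM or more. The part of endothelial, mural and fibroblast cells in the levels of Ctnna1, Ctnnb1, Jup and Tjp1 was not tested.

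Dsg2, Dsc2, Cdh2 and Ctnna1 lie on chromosome 18, Dsp on 13, Pkp2 on 16, Jup on 11, Ctnna3 on 10, Ctnnb1 on 9 and Tjp1 on 7. Exon bases shared with other genes of the count files were 0% for 8 of the 10, 1.48% for Ctnna1 (with Lrrtm2) and 14.6% for Ctnnb1. Against all of GENCODE M21, 5.17% of the exon bases of Dsp and 3.99% of those of Dsg2 are shared with entries on the other strand. Splice forms, such as the long and short forms of desmoplakin, are not resolved by gene counts.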

How the data were processed

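Polyadenylated RNA of 4 heart libraries was sequenced from single-end, unstranded libraries, per the labels' protocols. Each deposited table lists raw read counts by gene symbol. The submitters' processing notes name mm10, HTSeq, TopHat2 2.0.10, TopHat, Bowtie2, edgeR and DESeq, with no role for any. They name neither annotation nor counting settings, both not given in the sources used here. The 5 closing rows that name no gene, 8.96 to 9.30% of the listed reads, were left out. Most of these were alignments that were not unique (8.13 to 8.48%), so close paralogs and pseudogenes lose reads.

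CPM used the total of gene counts. Lengths and positions came from GENCODE M21 (GRCm38, the assembly mm10 denotes), to which 23062 of 23420 symbols matched. Spread was tested with edgeR 4.0.16 in R 4.3.3: intercept only, TMM factors, robust quasi-likelihood prior, genes averaging 1 CPM or more, quasi-dispersion over its trend against an F distribution (7.42 prior degrees of freedom), Benjamini-Hochberg over all genes tested. The procedure was tested on simulated data. Pair ratios added 0.5 to each count. Intervals are exact Poisson limits of 95% and, like the floor of 3 counts, cover counting error only. Libraries are numbered as in the titles and differed pairwise by more than sampling noise. Chi-square per degree of freedom over all genes was 2.22 for libraries 1 and 4 and 6.81 to 12.6 for the other pairs, so libraries 1 and 4 were the most alike. Alternatives were DESeq2 1.42.0 size factors and dispersion outliers, no filter, a prior that was not robust, other lengths and totals, no pseudocount, and leaving out libraries.

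The members, gene lists, pairs and tests were chosen with earlier results of these data known. Genes named were all members, both genes of each pair, up to 3 leading genes per length and the called genes of other lists, and the 3 with the steadiest ratio to the set. Gja1, Cdh11, Tmem43, Ttn, Ctnna2, Dsg and Dsc relatives outside that rule, Epcam, Krt1, Cdh1, Pkp1, Pkp3, Xist, Ddx3y and Rn45s were named after their values were seen. Of the 14 pairs tested, 1 is not reported here by name. Promoter windows are from RefSeq on GRCm38.p6 and were obtained for 5 of the 10 members. Any window of a member on chromosome 18, where Dsg2, Dsc2, Cdh2 and Ctnna1 lie, was left out.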

Additional observations from a re-analysis of the deposited data

Results flagged for a closer look

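Of 25 values checked (10 member levels, their sum and 14 pair ratios), 2 had 1 library far from the other 3. Chance marks about 1 in 20 such groups. The level of Ctnnb1 was 356 CPM in library 3 against 341 to 343 CPM in the others, a gap that made up 0.848 of the whole range. That range is narrow, at 1.04-fold. The log2 ratio of Ctnna1 to Ctnna3 per kilobase was 3.93 in library 3 against 4.28 to 4.33 in the others, a gap of 0.863 of the range. Ctnna3 had 504 counts in both library 1 and library 3, which were sequenced to 14412049 and 10523709 gene counts.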

How the results depend on the processing

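No paired analysis was possible because the 4 libraries form 1 group. The summed level of the members was 5101 to 5198 CPM when each library was left out in turn, 5137 CPM with TMM, 5138 CPM with DESeq2 size factors and 5887 CPM with Rn45s out of the total, which shrinks every total by construction. The count of members called more variable was 0 under all 9 alternatives run. Over all genes the count of 55 was 39 to 69 when each library was left out, 52 with DESeq2 size factors, 258 with no filter on low counts, 10 with a prior that was not robust, 129 as dispersion outliers of DESeq2 and 6 in libraries 1 and 4 only, where fewer samples enter the fit. For the count without a filter, with the other prior and in DESeq2 the cause was not tested. The log2 ratio of Ctnnb1 to Jup (-0.0052) ran from -0.033 to 0.017 when each library was left out, with 0.0065 without library 1 and 0.017 without library 2. It was 0.22 with the exon bases shared with other counted genes taken off the length, an alternative chosen, like libraries 1 and 4 only, after seeing the data. The log2 ratio of Pkp2 to Pkp4 was 0.0057 by the longest transcript. The 12 remaining pairs kept their direction under each alternative run. Depth limits the genes with few counts, such as the epithelial desmosome genes.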
